A study of Larimichthys crocea with 3 samples.

Results

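The subject here is the difference between a juvenile and an adult differentiating testis in Larimichthys crocea, the large yellow croaker, which is a marine teleost. Every barcode with at least 500 unique molecular identifiers (UMIs, each a captured RNA molecule) and at least 300 genes was kept, and the UMIs of each gene were summed over all kept barcodes of a library. This gave 4742 juvenile and 14769 adult differentiating barcodes, 19511 of the 37336 that passed the same filter in the whole series. All 27368 annotated genes were set side by side in the 2 sums as counts per 1000000 UMIs of the library (CPM). The series also holds an adult regressed testis, which is cited below only for orientation. Tissue from each stage was freed of blood and of the testis wall, dissociated with trypsin and collagenase, and loaded on a droplet platform that reads the 3′ ends of transcripts. The labels give no age, strain, genotype or number of fish for any stage. Each stage is 1 library, so no test between stages was possible. Stage and library preparation cannot be told apart, and every value below describes 2 libraries. Intervals are exact, at the 95% level, and hold counting error alone.

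In the teleost testis, germ cells develop in cysts wrapped by Sertoli cells. Spermatogonia divide by mitosis, spermatocytes pair and recombine their chromosomes along the synaptonemal complex, and spermatids build a flagellum around an axoneme of microtubules and dynein arms. The ovary shares the early germ cell programme and then departs from it: growing oocytes make zona pellucida proteins for the egg coat and store maternal transcripts that are translated after meiosis resumes. Fish gonads are plastic, and oocytes within a testis are known from several teleosts.

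The juvenile library held 24826985 UMIs with a median of 3118.5 UMIs and 1487 genes per barcode, and the adult differentiating library held 102790688 UMIs with a median of 3808 UMIs and 1997 genes. The median share of mitochondrially encoded UMIs was 0.297% in the juvenile and 1.55% in the adult differentiating library. The 50 most abundant genes took 20.6% of juvenile and 12.7% of adult differentiating UMIs. The 2 libraries shared 18 barcode sequences. Juvenile depth had the narrower middle range, with quartiles of 2679 and 4076 UMIs against 2037 and 7032 in the adult. Of juvenile barcodes, 66.2% held 2000 to 5000 UMIs, against 37.3% of adult differentiating barcodes.

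Across 11833 genes with a mean of at least 5 CPM over both libraries, 1385 (11.7%) were at least 4-fold higher in the juvenile testis and 3082 (26.0%) were at least 4-fold higher in the adult differentiating testis. A gene was counted when its ratio reached 4 and the end of its counting interval nearer to 1 lay beyond 2. These shares of all compared genes are the background for every list count below. The median gene had a log2 ratio, juvenile over adult, of -0.79, and 34.6% of compared genes were higher in the juvenile. CPM are shares of a library, so this centre depends on the scaling. Median-of-ratios scaling moved every log2 ratio up by 0.36, and the counts then became 1742 and 2316 genes. The juvenile-high count also depends on the filter on level, with 3397 genes when none was set and 704 at a mean of at least 20 CPM, where the adult-high count was 2025.

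The 2 directions had different shapes. Fewer genes were higher in the juvenile, but their ratios were more extreme: 224 were past 100-fold, against 4 genes past 100-fold in favour of the adult. The juvenile-high genes took 31.3% of all juvenile UMIs and 1.44% of adult UMIs. The adult-high genes took 32.0% of adult UMIs and 3.92% of juvenile UMIs. Genes without a symbol made up 32.4% of the juvenile-high set, 20.4% of the adult-high set and 18.3% of all compared genes.

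**Figure D1:**
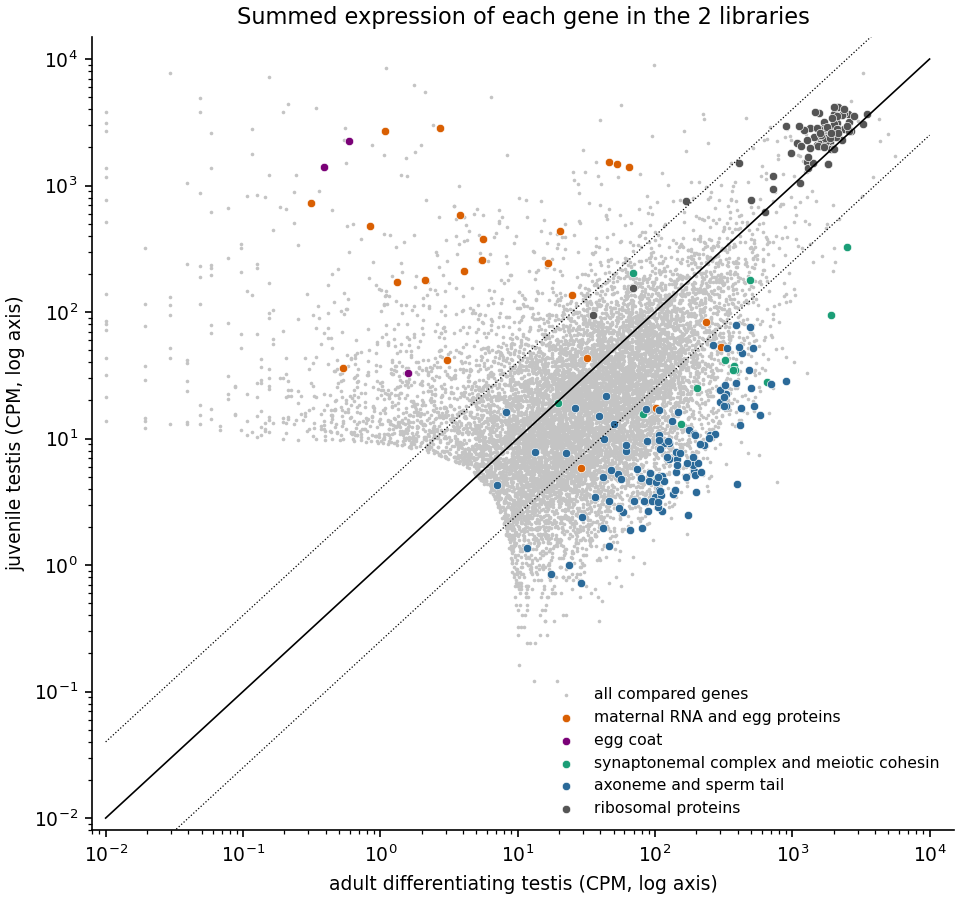
Each point is a gene with a mean of at least 5 CPM, with its CPM in the adult differentiating testis on the horizontal log axis and in the juvenile testis on the vertical log axis; the solid line marks equal levels, the dotted lines a 4-fold difference, and a level of 0 is drawn at 0.01. Egg coat and most maternal genes sit above the upper dotted line, meiotic and axonemal genes mostly below the lower one, and ribosomal protein genes near the solid line.

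Somatic markers of the labelled tissue were looked up in both libraries. Of 7 compared Sertoli and testis somatic genes, 5 were at least 4-fold higher in the juvenile library and none was at least 4-fold higher in the adult. The juvenile library held gsdf, a gonadal growth factor of fish Sertoli cells, at 50.0 CPM, cldn11a, a junction protein of the Sertoli barrier, at 102 CPM, and wt1, a gonadal transcription factor, at 37.0 CPM. The adult differentiating library held them at 6.48, 3.91 and 2.29 CPM. The testis factor dmrt1, also compared and not past 4-fold, stood at 7.77 CPM in the juvenile and 2.61 CPM in the adult. The anti-Müllerian hormone gene amh lay below the level compared, at 1.81 CPM from 45 juvenile UMIs and 0.0486 CPM from 5 adult UMIs. Of 16 matched genes on the ovarian somatic list, 2 reached the level compared, and 1 of these, foxl2l, was at least 4-fold higher in the juvenile. In zebrafish foxl2l marks germ cells, so it is described below with the oocyte factors and is not read as a somatic marker. The ovarian list, with foxl2l included, summed to 119.5 CPM in the juvenile and 49.3 CPM in the adult. The widely expressed ctnnb1 made up 49.8% and 79.1% of these sums. The granulosa factor foxl2 was at 2.62 CPM in the juvenile and 1.03 CPM in the adult, the aromatase cyp19a1a at 1.05 and 0.730 CPM, and the ovarian signal rspo1 at 0.201 and 0.263 CPM. The oestradiol-forming enzyme hsd17b1 was at 6.28 CPM in the juvenile and 0.0292 CPM, or 3 UMIs, in the adult, and the transcription factor runx1 at 4.03 and 0.535 CPM. Genes of the testis somatic list were therefore detected in both libraries, and genes of the ovarian list were detected too. Of 20 matched testis somatic genes, 7 reached the level compared. That list summed to 322 CPM in the juvenile and 36.9 CPM in the adult. Tissue identity is taken from the labels and was not tested by these values.

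Genes of the egg coat had the highest median ratio of the 34 lists. The 3 compared members, together 3675 CPM in the juvenile and 2.58 CPM in the adult, were 1426-fold higher in the juvenile (interval 1264 to 1614), and their median log2 ratio was 11.81. The size of this ratio depended on which barcodes were summed, from 703 in barcodes of at least 10000 UMIs to 8259 in those of 2000 to 5000 UMIs, well outside its counting interval. The zona pellucida gene zp3c stood at 2245 CPM in the juvenile and 0.593 CPM in the adult, and zpcx at 1397 and 0.389 CPM. A further member, zp3d.2, had a lower level than these in the juvenile library, at 33.3 CPM. At 1.59 CPM in the adult, it was still 20.9-fold higher in the juvenile. The adult regressed testis held 1.39 CPM over the same list, so the high level was seen in the juvenile library and in neither adult one.

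The store of maternal transcripts was also high in the juvenile. Of 23 compared genes for maternal RNA regulation and egg proteins, 18 were at least 4-fold higher in the juvenile and 3 were at least 4-fold higher in the adult. Their median log2 ratio was 5.07, and their sum was 14019 CPM in the juvenile and 956.5 CPM in the adult. The list includes the cyclin genes ccnb1 and ccna2, which are among the 18. The importin kpna7, which serves oocytes and early embryos, was at 2828 CPM in the juvenile and 2.71 CPM in the adult. The oocyte linker histone h1m was at 2678 and 1.08 CPM. The zygote arrest genes zar1 and zar1l, which bind stored messages in oocytes, were at 1483 and 587 CPM in the juvenile and at 53.2 and 3.81 CPM in the adult.

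Genes that time meiotic arrest and maturation had the same direction. The mos kinase, which keeps vertebrate eggs in metaphase arrest, was at 180 CPM in the juvenile and 2.101 CPM in the adult, and the oocyte kinase wee2 was at 258 and 5.51 CPM. The cyclin genes ccnb1 and ccna2 were at 1542 and 1393 CPM in the juvenile and at 46.0 and 65.0 CPM in the adult. The deadenylation partner btg4, needed for clearance of maternal message in the mouse, was at 724 and 0.311 CPM. The 3 members at least 4-fold higher in the adult were dazap2, dazap1 and cnot6l. They were at 53.1, 17.4 and 5.8 CPM in the juvenile and at 300.5, 102 and 28.8 CPM in the adult. The poly(A)-binding gene pabpc1l was also higher in the adult, at 83.2 CPM in the juvenile and 236 CPM in the adult, short of 4-fold.

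Oocyte growth factors and transcription factors were mostly juvenile-high. Of 8 compared genes, 5 (62.5%) were at least 4-fold higher there and 1 (12.5%) in the adult, against 11.7% and 26.0% of all compared genes. The secreted factors bmp15 and gdf9, by which oocytes signal to follicle cells, were at 134 and 47.6 CPM in the juvenile and at 1.16 and 0.681 CPM in the adult. The transcription factor figla, which drives zona pellucida genes, was at 41.7 and 8.13 CPM, and nobox, a homeobox factor of oocytes, was at 50.3 and 16.8 CPM. The exceptions were lhx8, another oocyte homeobox factor, at 1.57 CPM in the juvenile and 28.4 CPM in the adult, and the RNA packaging protein ybx1, at 832 and 3227 CPM. Its relative ybx2, a germ cell RNA packaging protein, went the other way, at 80.4 CPM in the juvenile and 2.59 CPM in the adult. The forkhead factor foxl2l, which in zebrafish marks germ cells entering oogenesis, was at 40.4 CPM in the juvenile and 4.11 CPM in the adult, a 9.85-fold difference (interval 8.78 to 11.1).

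Several of the genes of highest ratio belonged to no list. Liver-type fatty acid-binding protein fabp1 was among the most abundant genes of the juvenile testis, at 7803 CPM from 193714 UMIs, and had 3 UMIs in the adult, a ratio of 267343 with an interval of 91479 to 1296385. The metallothionein mt2, which binds zinc and copper, was at 8449 CPM in the juvenile and 1.11 CPM in the adult. The acid phosphatase acp5 was at 2840 and 0.555 CPM, and gtf3a, the factor that starts transcription of 5S ribosomal RNA and is abundant in frog oocytes, was at 1499 and 0.564 CPM. The fatty acid ligase acsl5 was at 664 and 0.0778 CPM. The gene bncr, whose product on the zebrafish egg admits sperm, was at 80.1 CPM in the juvenile and had no UMI in the adult, which is at least 2744-fold higher against a floor of 3 UMIs per library. Among abundant juvenile genes that the adult also expressed, the fatty acid-binding protein fabp4b was at 9043 and 97.8 CPM and the copper chaperone cox17 at 4302 and 56.3 CPM.

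**Figure D2:**
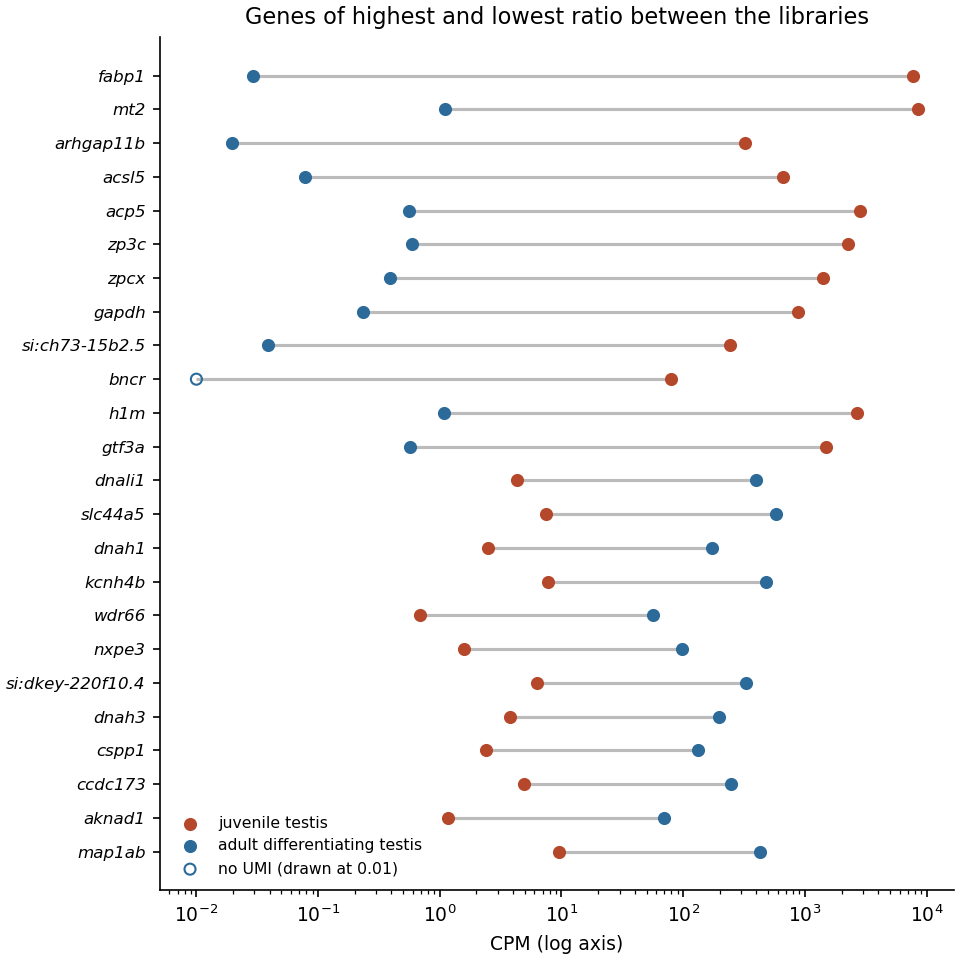
The 12 named genes of highest and the 12 of lowest ratio between the libraries, with their CPM in the juvenile (red) and adult differentiating testis (blue) on a log axis; grey lines join the values of a gene. The upper 12 genes, including fabp1, mt2, zp3c, zpcx and h1m, reach 80.1 to 8449 CPM in the juvenile and stay at 1.11 CPM or below in the adult, and bncr, which has no UMI there, is drawn at 0.01.

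The adult differentiating testis was higher for the machinery of the sperm tail. Of 109 compared genes of the axoneme and sperm tail, 101 were at least 4-fold higher in the adult and none was at least 4-fold higher in the juvenile. Their median log2 ratio was -4.20, and their sum was 19539 CPM in the adult and 1352 CPM in the juvenile, a 14.5-fold difference (interval 14.3 to 14.6) that was 9.56-fold in barcodes of at least 10000 UMIs. The outer-arm dynein heavy chain dnah8 was at 905 CPM in the adult and 28.4 CPM in the juvenile. The dynein light intermediate chain dnali1, ranked lowest among the named genes, was at 396 and 4.35 CPM, and the radial spoke protein rsph4a was at 587 and 15.4 CPM. One member, cfap73, was higher in the juvenile, at 16.3 against 8.22 CPM.

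Other named genes of lowest ratio included further axonemal dyneins and genes with less defined roles in sperm. The dynein heavy chains dnah1 and dnah3 were at 173 and 198 CPM in the adult and at 2.50 and 3.79 CPM in the juvenile. The choline transporter family member slc44a5 was at 577 CPM in the adult and 7.45 CPM in the juvenile, and the potassium channel gene kcnh4b was at 476 and 7.73 CPM. The juvenile had 17 UMIs of wdr66, a calcium-responsive component of the axoneme, which was at 56.6 CPM in the adult.

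Transport into the flagellum showed the same direction. Of 30 genes of intraflagellar transport and the BBSome, the complex that carries ciliary cargo, 24 were at least 4-fold higher in the adult and none in the juvenile, with a median log2 ratio of -2.87. The transport proteins ift172 and ift140 were at 104 and 56.0 CPM in the adult and at 7.09 and 2.38 CPM in the juvenile. The chaperonin-like gene bbs12 was the 1 member higher in the juvenile, at 55.9 against 16.6 CPM. Among 26 compared kinesins, 10 (38.5%) were at least 4-fold higher in the adult, against 26.0% of all compared genes. Their median log2 ratio was -1.24, against -0.79 for all compared genes. These included the anterograde motor subunits kif3a and kif3b, at 152 and 160 CPM in the adult and 26.6 and 17.8 CPM in the juvenile. The endosomal kinesin kif16bb was the 1 kinesin at least 4-fold higher in the juvenile, at 80.5 against 1.35 CPM.

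Genes of sperm-egg fusion followed, with 6 of 8 compared members (75%) at least 4-fold higher in the adult, against 26.0% of all compared genes. The sperm membrane protein tmem81 was at 438 CPM in the adult and 16.6 CPM in the juvenile, and izumo1, the sperm ligand of the egg receptor, was at 26.5 and 1.53 CPM. In the adult library, then, the sperm side of fertilisation was the higher one, and in the juvenile library the egg side, with bncr and the zona pellucida genes.

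Meiotic chromosome genes were adult-high as well. Of 14 compared genes of the synaptonemal complex and meiotic cohesin, 11 were at least 4-fold higher in the adult and none in the juvenile, and the list sum was 7671 CPM in the adult and 1054 CPM in the juvenile, a 7.28-fold difference (interval 7.19 to 7.37). The lateral element gene sycp3 was at 2523 CPM in the adult and 324 CPM in the juvenile, the transverse filament gene sycp1 at 1914 and 94.5 CPM, and the meiotic cohesin rec8 at 104 and 4.87 CPM. The exception was terb2, which tethers meiotic telomeres to the nuclear envelope, at 202 CPM in the juvenile and 69.3 CPM in the adult. Its partner terb1 was adult-high, at 155 against 13.0 CPM.

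Recombination genes were adult-high in part. Of 26 compared genes, 13 (50%) were at least 4-fold higher in the adult, against 26.0% of all compared genes, and none in the juvenile. Levels of spo11 and prdm9 lay close to even: spo11, the break-forming enzyme, was at 21.7 CPM in the juvenile and 24.2 CPM in the adult, and prdm9, which marks break sites in mammals, was at 21.4 and 19.0 CPM. The strand exchange recombinase dmc1 was at 251 CPM in the adult and 21.6 CPM in the juvenile, and ccnb1ip1, a ligase that acts at crossover sites, was at 427 and 57.2 CPM. Of 16 regulators of meiotic entry and spermatocyte transcription, 12 were at least 4-fold higher in the adult, among them hsf5 at 386 against 12.5 CPM, the cyclin ccna1 at 150 against 6.20 CPM, and brdt, a chromatin reader of spermatocytes and spermatids, at 402 against 48.3 CPM.

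**Figure D3:**
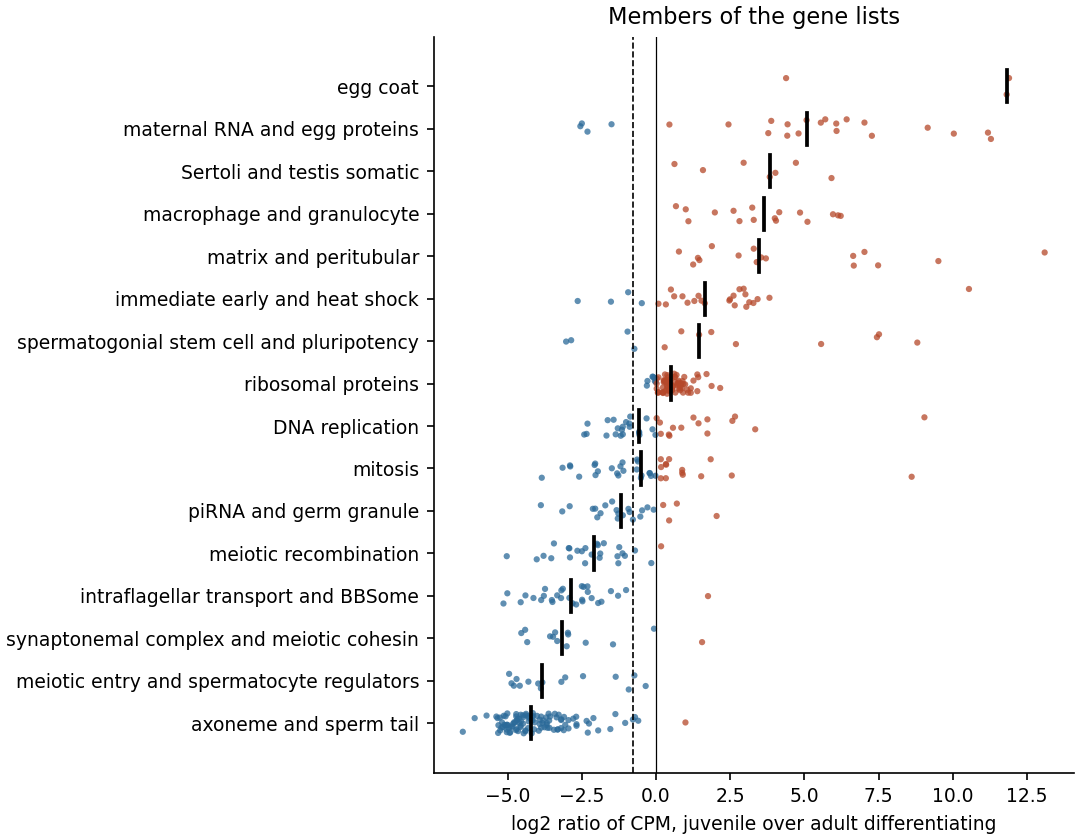
Log2 ratio of CPM, juvenile over adult differentiating, on the horizontal axis for each compared member of 16 gene lists; points are genes, red where higher in the juvenile and blue where higher in the adult, black bars are list medians, the thin line marks equal levels and the dashed line the median of all compared genes, -0.79. List medians run from 11.81 for the egg coat to -4.20 for the axoneme, and most lists hold members on both sides.

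Germ cells of both sexes use the piRNA pathway and the germ granule. Of 24 such genes, 1 (4.17%) was at least 4-fold higher in the juvenile and 5 (20.8%) in the adult, both below the 11.7% and 26.0% of all compared genes, with a median log2 ratio of -1.19 against -0.79 for all compared genes. The germ cell helicase ddx4 was at 397 CPM in the juvenile and 757 CPM in the adult, and the Argonaute piwil1 was at 253 and 610 CPM. The zinc finger protein gtsf1, which assists PIWI proteins, was the juvenile-high member, at 966 against 235 CPM. The Tudor protein tdrd6a, a scaffold of germ granules, was the adult-high member of greatest level, at 894 against 119 CPM.

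The compared stem cell and pluripotency genes leaned to the juvenile, with members on both sides. Of 27 matched genes, 13 reached the level compared. Of these 13, 9 were higher in the juvenile, and the median log2 ratio was 1.45, against -0.79 for all compared genes. At least 4-fold higher were 5 (38.5%) in the juvenile and 2 (15.4%) in the adult, against 11.7% and 26.0% of all compared genes. The POU factor pou5f3 was at 199 CPM in the juvenile and 0.448 CPM in the adult, the T-box factor eomesa at 105 and 0.574 CPM, sall4 at 30.2 and 0.642 CPM, and nanos3 at 15.2 and 0.0876 CPM. The spermatogonial stem cell gene nanos2 was low in both, at 8.46 and 4.71 CPM, and nanog was at similar levels, 355.5 and 289.8 CPM, with a ratio of 1.23 (interval 1.198 to 1.256). Members below the level compared included gfra1a, at 0.846 CPM in the juvenile and 1.92 CPM in the adult. Likewise zbtb16 was at 3.22 and 3.07 CPM, and id4 at 5.16 and 1.66 CPM. With median-of-ratios scaling the lists of piRNA and stem cell genes kept the signs of their medians, -0.83 and 1.81.

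As drawn up, the mitosis and DNA replication lists held no more large differences than genes at large. The cyclin genes ccnb1 and ccna2, 33.5-fold and 21.4-fold higher in the juvenile, were counted on the maternal list. Of 38 mitosis genes, 2 (5.26%) were at least 4-fold higher in the juvenile and 8 (21.1%) in the adult, and of 37 DNA replication genes, 4 (10.8%) and 3 (8.11%) were, against 11.7% and 26.0% of all compared genes. Single members are given as values. The anaphase activator cdc20 was at 1067 CPM in the juvenile and 182 CPM in the adult, and the securin pttg1 at 2332 and 651 CPM. The kinetochore gene cenpf was at 24.8 CPM in the juvenile and 356 CPM in the adult, incenp at 97.3 and 727 CPM, and the topoisomerase top2a at 60.1 and 446 CPM. Among replication genes, the licensing factors cdc6 and cdt1 were at 143 and 88.3 CPM in the juvenile and 14.1 and 14.0 CPM in the adult, whereas the chromatin assembly factor chaf1a was at 77.0 and 383 CPM. The sum over the replication list was 4895 CPM in the juvenile and 5110 CPM in the adult, a ratio of 0.958 that became 1.23 with median-of-ratios scaling, so it has no fixed direction.

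Chromatin and energy lists were near or below the background too. Of 21 genes of DNA methylation and histone marks, 3 (14.3%) were at least 4-fold higher in the juvenile and 1 (4.76%) in the adult. The histone variant h2ax was at 1525 CPM in the juvenile and 37.5 CPM in the adult, and the de novo DNA methyltransferase dnmt3ba at 125 and 13.6 CPM. Of 39 compared genes of glycolysis and the citric acid cycle, 5 (12.8%) were at least 4-fold higher in the juvenile and 3 (7.69%) in the adult, against 11.7% and 26.0% of all compared genes. The juvenile-high ones included gapdh at 884 against 0.233 CPM and ldha at 33.4 against 2.24 CPM. The list median, -0.37, became -0.00 with median-of-ratios scaling. Ribosomal protein genes were evenly shifted, with 72 of 79 higher in the juvenile and 1 past 4-fold, whereas the 12 compared mitochondrially encoded genes had a median log2 ratio of -0.92 and none was past 4-fold.

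Macrophage, granulocyte and matrix genes were higher in the juvenile library. Of 16 compared macrophage and granulocyte genes, 12 (75%) were at least 4-fold higher in the juvenile, against 11.7% of all compared genes, and none in the adult. The list summed to 1126 CPM in the juvenile and 101 CPM in the adult. The antigen-presentation chain cd74 was at 320 and 19.5 CPM, and the complement gene c1qb at 42.9 and 0.613 CPM. Of 16 matrix and peritubular genes, 11 (68.8%) were at least 4-fold higher in the juvenile, including the collagen gene col1a1b at 44.3 against 0.341 CPM and sparc at 21.6 against 0.214 CPM. Lymphocyte and endothelial lists had few compared genes. Of 2 lymphocyte genes, 1 was at least 4-fold higher in the juvenile. Of 3 endothelial genes, 2 were at least 4-fold higher in the juvenile and 1 in the adult. Of 5 compared erythroid genes, 3 (60%) were at least 4-fold higher in the adult and 1 (20%) in the juvenile, against 26.0% and 11.7% of all compared genes. The carbonic anhydrase cahz, at 848 CPM in the adult and 51.9 CPM in the juvenile, made up 89.0% of the adult sum. The 1% of adult barcodes with most of its UMIs held 17.5% of them. For scale, the deepest 1% of adult barcodes held 13.8% of all UMIs. The level of cahz is therefore not read as a level of red cells. In summed libraries, fewer cells of a type and less RNA per cell cannot be told apart, which holds for every list above.

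Early response genes were juvenile-high too. Of 27 compared immediate early and heat shock genes, 13 (48.1%) were at least 4-fold higher in the juvenile and 1 (3.7%) in the adult. The shares of all compared genes were 11.7% and 26.0%. The stress gene gadd45b was at 656 CPM in the juvenile and 46.4 CPM in the adult, and fosb at 116 and 10.9 CPM. Their summed level was close to even, 4907 and 5139 CPM, because the chaperone hsp90ab1 made up 46.2% of the juvenile and 84.9% of the adult sum. That sum changes direction with median-of-ratios scaling, from a ratio of 0.955 to 1.23. The part of tissue handling in these values was not tested.

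Egg coat transcripts were found in nearly all barcodes of the juvenile library. With every barcode thinned to 1000 UMIs, 4548 juvenile and 13298 adult barcodes remained, and 194 and 1471 shallower ones were left out. At this depth 97.8% of juvenile barcodes held a UMI of an egg coat gene (99.6% before thinning), against 0.113% of adult barcodes (1.25% before thinning). The mean was 4.31 egg coat UMIs per 1000 in the juvenile, and the variance over the mean was 1.15, close to the value of 1 that counting alone gives. The maternal list had a mean of 16.4 UMIs per 1000, with a 5th to 95th percentile of 8 to 25 and a variance over the mean of 1.58. The adult axoneme list behaved differently: its mean was 25.4 UMIs per 1000, its 5th to 95th percentile ran from 2 to 66, and its variance over the mean was 18.8.

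**Figure D4:**
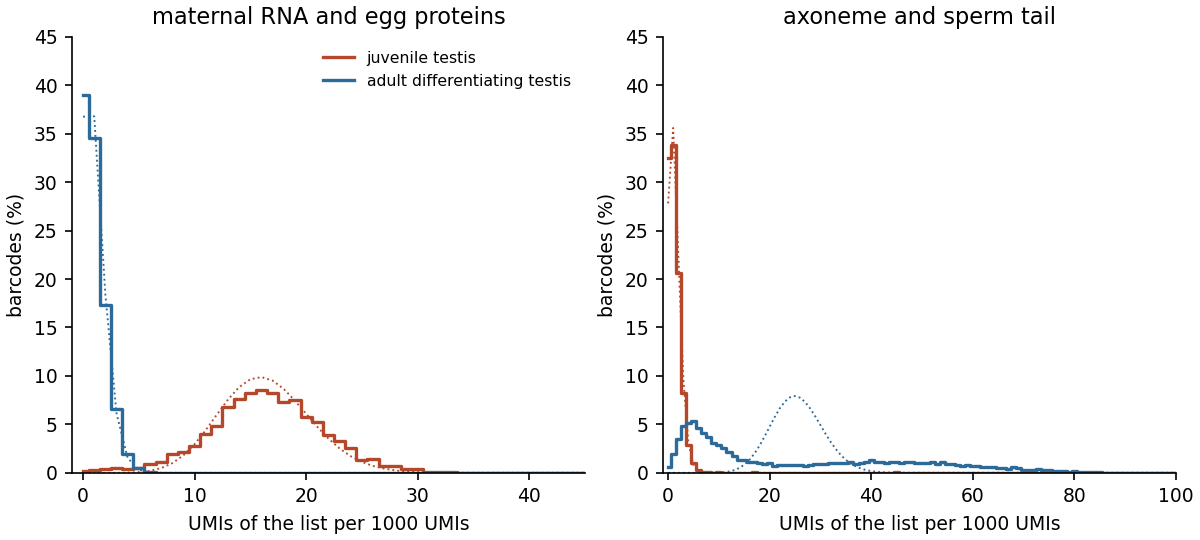
Percentage of barcodes (vertical axis) by the number of UMIs of a list per 1000 UMIs (horizontal axis) for the maternal list (left) and the axoneme list (right); solid lines are the juvenile (red) and adult differentiating (blue) barcodes, and dotted lines are Poisson curves of the same means. Juvenile barcodes form a single hump around a mean of 16.4 maternal UMIs, wider than the Poisson curve, with a variance over the mean of 1.58. Adult barcodes spread from 2 to 66 axoneme UMIs at their 5th and 95th percentiles, far wider than their Poisson curve.

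Most macrophage, Sertoli and matrix UMIs lay in few juvenile barcodes, though single UMIs were widespread. Before thinning, 58.1% of juvenile barcodes held a macrophage, 55.4% a matrix and 39.5% a Sertoli UMI, and after it 28.4%, 22.3% and 12.8% did. For each list, the 1% of barcodes with most of its UMIs held 58.0% of macrophage, 60.7% of Sertoli and 50.0% of matrix UMIs in the juvenile, against 10.8% of egg coat and 9.94% of maternal UMIs. Other somatic lists were less concentrated, with 32.5% of lymphocyte, 27.5% of endothelial, 26.3% of ovarian somatic, 24.4% of steroid production and 21.0% of erythroid UMIs. For scale, the deepest 1% of juvenile barcodes held 12.7% of all UMIs. Between these, foxl2l was concentrated: the leading 1% of barcodes held 50.7% of its juvenile UMIs, against 9.60% for bmp15 and 22.0% for figla.

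Egg transcripts were also present in barcodes rich in macrophage and granulocyte transcripts. Juvenile barcodes with at least 5 UMIs and at least 0.5% of their UMIs in the macrophage and granulocyte list were set apart, a threshold chosen after the data were seen. They numbered 64, with a median of 8427 UMIs against 3104.5 for all others, and 66 further barcodes lay between 0.25% and 0.5%. Summed together, they also held 2686 CPM of the Sertoli list against 216 CPM elsewhere, so they are not named as 1 cell type here. Whether single barcodes held both sets of transcripts was not tested. In these 64 barcodes the egg coat list stood at 904 CPM, 0.238 of the 3800 CPM in the other barcodes (interval 0.223 to 0.254). A UMI of zp3c was found in 98.4% of the 64 and in 98.9% of the others, and after thinning in 64.1% and 91.3%.

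Several germ cell and egg genes lay at similar fractions there, whereas other genes and lists did not. The ratio of the 64 barcodes to the others was 0.187 for fabp1, 0.200 for mt2, 0.204 for h1m, 0.200 for zar1, 0.210 for ddx4 and 0.156 for sycp3. It was 0.325 for gdf9, 0.427 for the axoneme list, 1.05 for the oocyte factor list and 2.72 for the sperm-egg fusion list. Single genes weighed heavily in these last lists. In the whole juvenile library ybx1 made up 61.3% of the oocyte factor list and gapdhs 68.4% of the fusion list. The ratio was 3.83 for gapdhs, 0.555 for tmem81 and 0.231 for bmp15, and izumo1 had no UMI in the 64 barcodes. Over the 407 juvenile-high genes of at least 100 CPM the median ratio was 0.259, with quartiles of 0.213 and 0.452. The 95th percentile was 10.2, and 56 of these genes lay above 1. Genes with lower ratios were foxl2l, at 0.0222, and figla, at 0.0648, but both rest on few UMIs. In the 64 barcodes they stood at 0.939 and 2.82 CPM and were found in 1.56% and 4.69% of barcodes. In the adult differentiating library the same threshold set apart 18 barcodes, with a median of 3408 UMIs against 3809, and there the axoneme list stood at 4769 CPM against 19553 CPM elsewhere, a ratio of 0.244. Neither the unthinned nor the thinned share of juvenile barcodes with an egg transcript is read here as expression in each barcode. The egg coat level and the thinned share of zp3c were higher outside the 64 juvenile barcodes. The parts of free RNA and of doublets in these values were not tested.

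**Figure D5:**
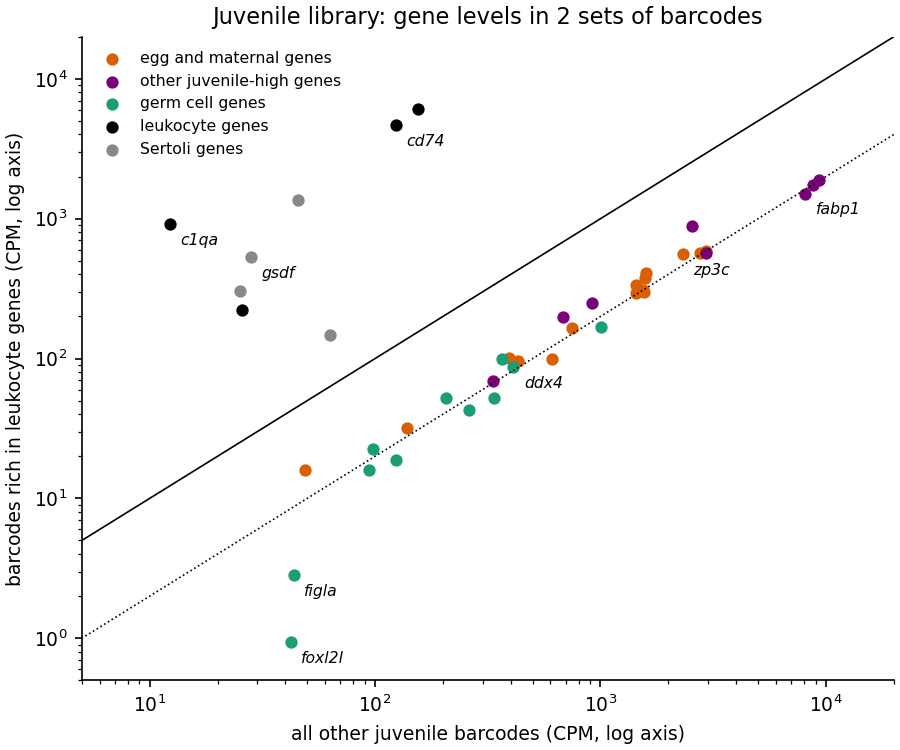
CPM of selected genes in the juvenile library, in 64 barcodes rich in leukocyte genes (vertical log axis) and in all other barcodes (horizontal log axis); the solid line marks equal levels and the dotted line a ratio of 0.2. Most of the egg, maternal and germ cell genes drawn lie near the dotted line, and figla and foxl2l, each with few UMIs in the 64 barcodes, below it. The Sertoli genes lie above the solid line together with the leukocyte genes that were used to set the barcodes apart.

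The contrast was also seen between barcodes of matched depth. In juvenile barcodes of 2000 to 5000 UMIs the egg coat list was at 4495 CPM, and in those of at least 10000 UMIs at 2909 CPM, with 0.544 and 4.14 CPM in adult barcodes of the same depths. The axoneme list was at 1292 and 1416 CPM in these juvenile bands and at 25346 and 13534 CPM in the adult ones. The Sertoli list stood at 147 CPM in the shallower and 517 CPM in the deeper of these juvenile bands.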

How the data were processed

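The deposited values are UMI counts per gene and barcode, made by the authors with Cell Ranger: version 5.0.0 per the file headers and 3.1.0, with STAR, per the submitters' processing notes. The genome build is not given in the sources used here, so no coordinates are printed. Counts of kept barcodes were summed per gene and divided by the library total. There was no limit on mitochondrial UMIs and no removal of doublets. Symbols came from the files or, for 6125 of 15972 locus identifiers, from a RefSeq gene table of assembly L_crocea_2.0. For 115 names carried by several features no level is named. Ratios have exact conditional binomial 95% intervals. UMIs of 1 library are not replicates, and depth was 24826985 and 102790688 UMIs.

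Genes named are list members of high level or large ratio, the 12 genes of highest and of lowest ratio with at least 50 CPM in 1 library, ranked by the interval end nearer to 1, and the 10 most abundant. The lists and the comparison itself were chosen with earlier results of these data known, and list medians have no test. Barcodes were thinned without replacement to 1000 UMIs. Alternatives changed the barcode filter, doublets, the CPM denominator, the summing and the filter on level. The counting was tested on simulated data. Python 3.11.15, NumPy 2.4.6, SciPy 1.17.1, pandas 2.3.3 and matplotlib 3.10.9 were used.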

Additional observations from a re-analysis of the deposited data

How the results depend on the processing

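Among the 2 gene counts and 4 list ratios recomputed under each alternative, no ratio changed direction; the replication and early response sums and birc5a, which lie near even, do so with median-of-ratios scaling. The number of juvenile-high genes was 3397 without a filter on level and 704 at a mean of at least 20 CPM, where adult-high genes numbered 2025. Other settings stayed within 1.5 times of 1385 and 3082. Ratios of the egg coat, axoneme, synaptonemal and Sertoli lists, in that order and juvenile over adult, were 1426, 0.0692, 0.137 and 8.72 as reported. They were 5687, 0.0499, 0.114 and 11.4 without the barcodes of highest UMI total (180 juvenile and 1752 adult, as a stand-in for doublets), 1651, 0.0801, 0.159 and 10.1 without the 50 most abundant genes in the denominator, and 1835, 0.0891, 0.177 and 11.2 with median-of-ratios scaling. They were 3964, 0.0512, 0.121 and 8.20 as means over barcodes, and 3583, 0.0503, 0.117 and 7.39 after thinning. In alternatives chosen after seeing the data, they were 703, 0.105, 0.169 and 9.84 in barcodes of at least 10000 UMIs, and 8259, 0.0510, 0.108 and 8.53 in barcodes of 2000 to 5000 UMIs. The cause of these shifts was not tested. No paired analysis was possible because each stage is 1 library, and for the same reason no library could be left out.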

Other observations

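Pairs of related genes with 1 member near absent from the adult library were looked up after their values were seen. The histone message binder slbp2 was at 379.5 CPM in the juvenile and 0.720 CPM in the adult, while its relative slbp was at 124.5 and 185 CPM. The survivin gene birc5b was at 417 and 1.07 CPM, while birc5a was at 190 and 220 CPM (ratio 0.862, interval 0.835 to 0.890). The glycolytic enzyme gapdh was at 884 and 0.233 CPM, and gapdhs, known in mammals as the form of sperm, was at 99.7 and 128 CPM. With median-of-ratios scaling, slbp and gapdhs move by 0.36 on the log2 scale like every other gene, and birc5a then changes sign.

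Of 10 compared retinoid genes, 5 (50%) were at least 4-fold higher in the juvenile, against 11.7% of all compared genes. In the adult 2 (20%) were, below the 26.0% of all compared genes. The retinoid uptake receptor stra6 was at 14.4 CPM in the juvenile and 0.195 CPM in the adult, the synthesis enzyme aldh1a3 at 13.5 and 0.195 CPM, and the binding protein crabp2a at 13.2 and 0.146 CPM. The nuclear receptor genes rara and rxrba were the adult-high ones, at 20.3 and 47.3 CPM in the adult and 4.63 and 8.18 CPM in the juvenile. Of 48 compared proteasome genes, 3 (6.25%) were at least 4-fold higher in the juvenile and 2 (4.17%) in the adult, both below the shares of all compared genes. Proteasome genes summed to 6285.5 CPM in the juvenile and 10748 CPM in the adult. Among immune forms of the proteasome, psmb8 and psmb10 were at 16.1 and 17.0 CPM in the juvenile and at 2.58 and 1.35 CPM in the adult. The juvenile library also held more macrophage and granulocyte transcripts, and a link between these values was not tested.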
